A study of Rattus norvegicus with 3 samples.

Results

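Growth plate regulators of the SOX, hedgehog and PTH receptor families were followed through single-cell RNA libraries of the rat temporomandibular joint (TMJ) condyle. The members were 8 genes chosen by name, Sox5, Sox6, Sox9, Ihh, Pth1r, Pthlh, Ptch1 and Gli1. Of these, 7 matched 1 feature name in each library, out of 20896 gene names listed in the 3 libraries together. Pthlh matched no feature name and was not analysed here. As background, SOX9 is the transcription factor that chondrocytes need to form and to make their matrix, and SOX5 and SOX6 work with it on the same cartilage genes. In growth cartilage, prehypertrophic chondrocytes secrete Indian hedgehog (Ihh), which drives parathyroid hormone-related protein (PTHrP, encoded by Pthlh), and PTHrP acts through its receptor (Pth1r) to delay hypertrophy. Hedgehog ligands bind PTCH1, which releases signalling to the GLI factors, and Ptch1 and Gli1 are themselves switched on by the pathway, so that they serve as its usual readouts; the mandibular condyle carries a growth cartilage of this kind.

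The study asked how joint tissue responds to abnormal loading and to a microRNA given by a viral vector. Unilateral anterior crossbite (UAC) is a dental malocclusion model that loads the TMJ unevenly, and an adeno-associated virus (AAV) injected into the joint was either the Vector AAV control or carried miR-330. The sham library came from rats without UAC that received Vector AAV, the UAC library from rats with UAC and Vector AAV, and the UAC + miR-330 library from rats with UAC and miR-330 AAV. All were SD rats kept for 8 weeks, and each library pooled 16 condyles of 8 rats, taken as cartilage with subchondral bone. With 1 library per condition there was no replicate check, and every interval below is an exact 95% interval that covers counting error only. The libraries held 77668015 unique molecular identifiers (UMIs, counts of single RNA molecules) in 15 clusters for sham, 92629658 in 18 clusters for UAC and 97255383 in 19 clusters for UAC + miR-330. Levels are given as UMIs per 1000000 UMIs of the cluster (CPM). Since the values are sums over clusters, fewer cells and less RNA per cell cannot be told apart, cells could not be counted, doublets could not be called and free RNA was not subtracted.

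The tissue labels were checked against cell type markers. Of the 52 clusters, 36 carried blood cell markers and were named from them, 15 as B cell-like, 10 as neutrophil-like and 4 as erythroid-like among them, and 13 were left unnamed by the naming rule, of which 2 had 4 B cell markers enriched. Each library had 1 chondrocyte-like cluster, in which 17 of 20 chondrocyte markers were enriched over the other clusters in sham, 17 in UAC and 18 in UAC + miR-330. Col2a1, the main collagen of cartilage, reached 27180, 19379 and 24344 CPM in this cluster in the same order. Of the 10 leading genes of the cluster, however, only 0, 1 and 0 were chondrocyte markers. The cluster was not pure cartilage, since 11, 12 and 12 of the 12 osteogenic markers were enriched in it too, with Col1a1 at 57395, 46960 and 49062 CPM, and so were 10, 11 and 11 of the 13 fibroblast markers. Osteoclasts are the second labelled cell type, but no cluster was named osteoclast-like. In the chondrocyte-like cluster Ctsk was the most abundant osteoclast marker at 177, 260 and 153 CPM, while Atp6v0d2, Ocstamp and Calcr were at 0 in every library. The chondrocyte-like cluster held 11.6% of all UMIs in sham, 6.46% in UAC and 6.05% in UAC + miR-330.

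In the chondrocyte-like cluster, UAC stood below sham for Ihh and Pth1r, and UAC + miR-330 stood above UAC for Sox5, Sox9, Ihh and Pth1r and below it for Gli1. A gene was called between 2 libraries when its levels differed at least 1.5-fold and their intervals did not overlap; genes under 10 UMIs in the 2 libraries combined were not tested. For UAC against sham, 2 of 7 members fell and 0 rose, where 1.02% of all 12606 genes tested fell and 6.81% rose. Between UAC + miR-330 and UAC, 4 of 7 members rose and 1 fell, where 5.53% of 12398 genes rose and 5.28% fell. Relative to the chondrocyte or the osteogenic markers all 4 rises lost their calls, as did the fall of Pth1r in UAC against sham. The mean counts as deposited also took away that fall of Pth1r, and brought Sox6 and Ptch1 past 1.5-fold upward in UAC + miR-330 against UAC. Over all clusters together, UAC against sham gave 3 members down (Sox9, Ihh and Pth1r) and 0 up, beside 4.63% of 16687 genes down and 5.60% up. UAC + miR-330 against UAC over all clusters gave 2 members up (Sox9 and Ihh) and 0 down, beside 8.87% of 16939 genes up and 2.74% down; under median-of-ratios scaling both calls were lost, at log2 0.48 for Sox9 and 0.55 for Ihh. Both comparisons use the same UAC library, so that a gene low in that library by any route moves down in one and up in the other. The median log2 ratio of all genes in the chondrocyte-like cluster was 0.15 for UAC against sham and 0.01 for UAC + miR-330 against UAC.

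**Figure D1:**
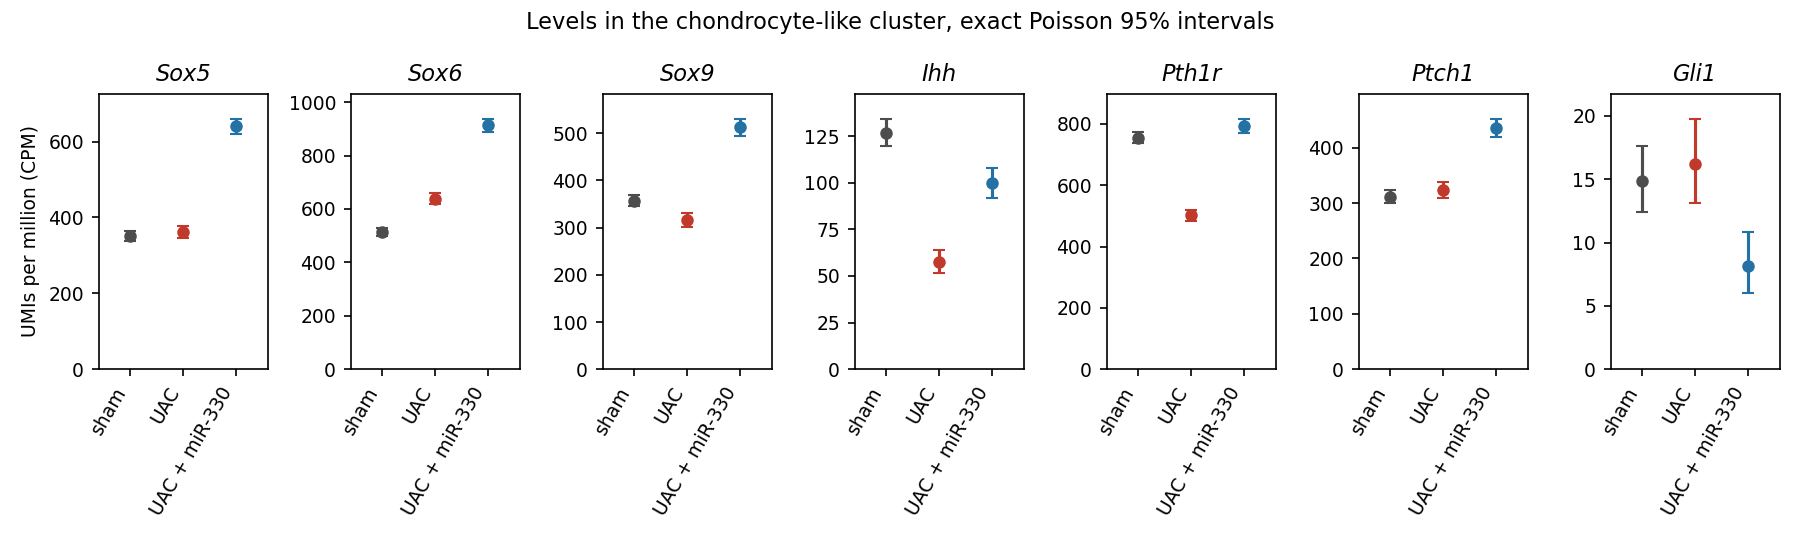
CPM (linear axis from 0, a separate scale per gene) of each of the 7 members in the chondrocyte-like cluster of the 3 libraries, with points for the level and bars for the exact Poisson 95% interval. Ihh stands at 127 in sham, 57.5 in UAC and 99.7 in UAC + miR-330, and Gli1 stays under 20 in each.

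The members differed in how far their RNA lay in the chondrocyte-like cluster. Sox9, Pth1r and Ihh were nearly restricted to it: of their UMIs in the whole library, the chondrocyte-like cluster held 97.5%, 97.2% and 94.8% in sham. Sox6 had 93.0% there in sham, 87.2% in UAC and 80.4% in UAC + miR-330. Ptch1 had 67.6%, 55.5% and 59.2%, and Gli1 had 62.3% (55.5 to 68.8), 40.9% (34.6 to 47.5) and 23.2% (17.6 to 29.5). Sox5 had 41.4% in sham, 27.2% in UAC and 30.7% in UAC + miR-330, so that the smallest share was that of Sox5 in sham and UAC and that of Gli1 in UAC + miR-330. These shares move with the size of the cluster as well as with the level inside it. Weighting each cluster equally, Sox6 had 84.7%, 90.1% and 85.4%, Ptch1 56.3%, 57.1% and 59.99%, Gli1 45.4%, 42.3% and 23.6% and Sox5 30.9%, 28.1% and 33.6%. The lower shares of Sox6 and Ptch1 in UAC than in sham were thus not kept under equal weights, and those of Gli1 and Sox5 were mostly lost. In the order of clusters by level, the chondrocyte-like cluster came first for 6 members in every library and second for Sox5, each time with an interval apart from the next cluster. Below it the order was mostly unresolved, since 301 of the 343 neighbouring pairs of all members together had overlapping intervals. The first place of Gli1 in UAC + miR-330 was not resolved from every cluster. Its interval in the chondrocyte-like cluster (6.01 to 10.8) overlapped that of a B cell-like cluster at rank 4, at 2.97 CPM (1.19 to 6.11; 7 UMIs). Members had 0 UMIs in 33 of the 364 cluster levels, where the upper end of the interval was 0.504 to 2.18 CPM depending on the depth of the cluster.

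**Figure D2:**
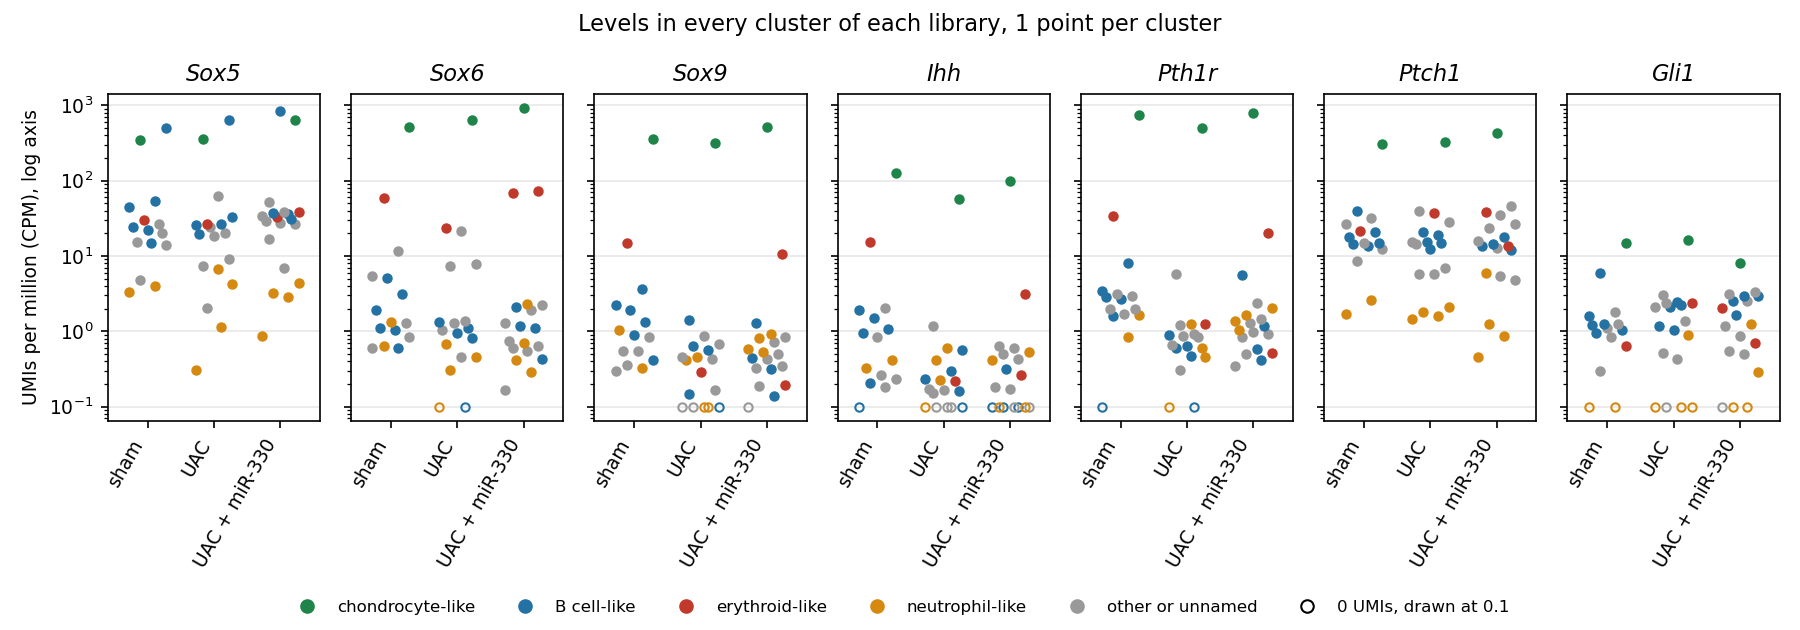
CPM (log axis) of each member in every cluster of each library, 1 point per cluster coloured by the marker list that named it, with open points for clusters at 0 UMIs. The chondrocyte-like cluster lies highest for every member but Sox5, whose highest points, 506 in sham, 638 in UAC and 848 in UAC + miR-330, are a B cell-like cluster.

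Sox9, the master factor of the chondrocyte lineage, was followed first. Its level in the chondrocyte-like cluster was 357 CPM (345 to 370) in sham, 316 (302 to 330) in UAC and 512 (494 to 531) in UAC + miR-330. UAC and sham had intervals apart, yet their log2 ratio of -0.18 (-0.26 to -0.10) was under the 1.5-fold limit, and it turned to 0.02 on the mean counts as deposited. UAC + miR-330 stood above the other libraries, and against UAC Sox9 rose 1.62-fold (log2 0.70, 0.62 to 0.78), a call lost relative to the chondrocyte markers (0.24) and the osteogenic markers (0.18). Over all clusters Sox9 read 42.5 CPM in sham, 20.7 in UAC and 31.7 in UAC + miR-330. The log2 ratio for UAC against sham was then -1.04, a call; the chondrocyte-like cluster, which held 97.5% of Sox9 UMIs in sham and 98.4% in UAC, made up 11.6% of the UMIs of the one library and 6.46% of the other. Outside the cluster Sox9 was near 0, at 1.18, 0.346 and 0.733 CPM, or 0.330%, 0.110% and 0.143% of its level inside. Chondrocyte markers with at least 100 UMIs in the cluster give the scale for such traces, with a median of 0.470%, 0.215% and 0.242%, and only 1 marker per library fell below Sox9. Its highest level outside was 14.8 CPM (23 UMIs) in the erythroid-like cluster led by Igh-6, Hba-a3 and Alas2 in sham, and 10.6 CPM (30 UMIs) in the one led by Igh-6 and Hba-a3 in UAC + miR-330. Those clusters also carried Col2a1 at 3.30% and 3.18% of its level in the chondrocyte-like cluster, beside 4.16% and 2.06% for Sox9. Across the 52 clusters, which share libraries and depth, the genes most like Sox9 were Panx3 (Pearson r = 0.980), NEWGENE_621351 (0.980) and Fmod (0.979), and 484 genes of 13924 passed 0.9.

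Sox5 had a second site outside the chondrocyte-like cluster, which held as large a part of its UMIs as that cluster in sham and a larger part in UAC and UAC + miR-330. In the chondrocyte-like cluster it read 351 CPM (339 to 363) in sham, 362 (346 to 377) in UAC and 640 (619 to 660) in UAC + miR-330. Sham and UAC overlapped, with a log2 ratio of 0.04 (-0.04 to 0.12) that turned to -0.09 under median-of-ratios scaling. Against UAC, UAC + miR-330 rose 1.77-fold (log2 0.82, 0.75 to 0.90), the largest fold among the 4 members that rose. Its interval overlapped those of Ihh (0.60 to 0.99) and Sox9 (0.62 to 0.78), so the order among these was not resolved. Relative to the chondrocyte markers (0.37) and the osteogenic markers (0.31) the rise of Sox5 was not called. The highest Sox5 level of each library was in a B cell-like cluster led by Ms4a1, Il4i1 and Fcmr, at 506 CPM (488 to 524) in sham, 638 (619 to 657) in UAC and 848 (827 to 869) in UAC + miR-330. That cluster alone held 41.3%, 54.2% and 50.7% of all Sox5 UMIs, and in UAC and UAC + miR-330 Sox5 was among its 10 leading genes. The 20 chondrocyte markers summed to only 255, 107 and 89.6 CPM there, and Col2a1 stood at 0.260%, 0.127% and 0.102% of its level in the chondrocyte-like cluster while Sox5 stood at 144%, 176% and 133%. Ms4a1, the gene of the B cell antigen CD20, reached 383, 403 and 667 CPM in the same clusters. The clusters were matched between libraries by these leading genes, after their values were seen, and the log2 ratios of Sox5 in them were 0.33 (0.27 to 0.40) and 0.41 (0.35 to 0.47), beside medians over all genes of 0.01 and 0.07. No call is given for them, since neither reached 1.5-fold.

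Among the remaining clusters Sox5 was spread thinly. The median over clusters other than the chondrocyte-like was 21.2 CPM in sham, 19.8 in UAC and 29.8 in UAC + miR-330. The lowest level of each library was in a neutrophil-like cluster, at 3.28, 0.303 and 0.861 CPM, and the 10 neutrophil-like clusters together reached no higher than 6.78 CPM. Of the 49 neighbouring pairs in its orders of clusters, 11 were apart, the most of any member. The genes most like Sox5 over the 52 clusters were Tiam2 (r = 0.899), Trim46 (0.894) and Hivep3 (0.862), and 0 genes reached 0.9. Its r with Sox9 was 0.489 and with Sox6 0.462, while Sox6 and Sox9 had 0.838, so that Sox5 stood apart from the other two of the cartilage trio.

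Sox6, the other partner of SOX9, is also known from red cell development, where it silences embryonic globin genes. In the chondrocyte-like cluster it read 514 CPM (500 to 529) in sham, 638 (618 to 658) in UAC and 914 (890 to 939) in UAC + miR-330. The 3 intervals were apart and in this order, but neither step reached 1.5-fold: the log2 ratios were 0.31 (0.25 to 0.37) and 0.52 (0.46 to 0.58). The chondrocyte and osteogenic marker medians took 0.46 and 0.51 off the second ratio, which leaves little of it. The mean counts as deposited added 0.24 to the second ratio, which brings it past the 1.5-fold limit. Over all clusters the first of these ratios read -0.44, from 64.2 to 47.2 CPM, although Sox6 read 0.31 inside the chondrocyte-like cluster and 0.34 outside it; the cluster that holds most of its UMIs was 11.6% of the sham library and 6.46% of the UAC library. Outside the chondrocyte-like cluster Sox6 stood at 5.10, 6.45 and 14.4 CPM. More of these UMIs (132 of 350, 326 of 559 and 1040 of 1315) lay in a cluster led by Car1, Gfi1b and Slc25a21 than in any other, and Sox6 measured 11.6 CPM (9.75 to 13.8) in sham, 23.7 (21.2 to 26.4) in UAC and 67.9 (63.8 to 72.1) in UAC + miR-330 there. An erythroid-like cluster led by Igh-6 and Hba-a3 stood higher in sham, at 58.1 CPM (46.7 to 71.4; 90 UMIs), and overlapped it in UAC + miR-330, at 72.3 (62.7 to 82.9; 205 UMIs). Both carried markers of other cells too. By the naming rule 7 erythroid and 5 mast and basophil markers were enriched in the sham cluster, and 6 erythroid and 3 macrophage markers in the UAC + miR-330 one. The chondrocyte markers had a median of 4.36% and 3.26% of their chondrocyte-like level in these erythroid-like clusters, beside 11.3% and 7.91% for Sox6, and this background was not subtracted. In UAC a mast and basophil-like cluster overlapped the Car1-led one, at 21.6 CPM (17.0 to 27.2; 74 UMIs). In the Car1-led clusters Col2a1 was at 0.0877%, 0.120% and 0.0708% of its level in the chondrocyte-like cluster, while Sox6 was at 2.27%, 3.72% and 7.43%, above all 16, 16 and 17 chondrocyte markers compared. The log2 ratios of Sox6 between them were 1.02 (0.73 to 1.33) and 1.52 (1.34 to 1.70), beside medians over all genes of 0.11 and 0.12.

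The make-up of those Car1-led clusters differed between the libraries. Their 8 listed erythroid markers summed to 690 CPM in sham, 1956 in UAC and 3446 in UAC + miR-330, with Hba-a1 at 263, 1001 and 1988 CPM. Gfi1b, which marks early erythroid and megakaryocyte cells, read 22.8, 42.2 and 41.9 CPM, and the B cell markers summed to 5852, 5435 and 6119 CPM, mostly Ebf1. Sox6 thus stood higher where the erythroid list did, and the part of cluster make-up in its ratios was not tested. The sham cluster was left unnamed and the other 2 were erythroid-like, so the match rests on the leading genes and was made after the values were seen. The genes most like Sox6 over the 52 clusters were Aqp1 (r = 0.941), Slc6a9 (0.940) and Grb10 (0.921), and 7 genes passed 0.9.

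Set against each other inside the chondrocyte-like cluster, the SOX genes did not keep one proportion. Sox6 UMIs per Sox9 UMI numbered 1.44 (1.38 to 1.51) in sham, 2.02 (1.91 to 2.14) in UAC and 1.78 (1.71 to 1.87) in UAC + miR-330. Sox5 per Sox9 was 0.982 (0.934 to 1.03), 1.15 (1.08 to 1.22) and 1.25 (1.19 to 1.31). Both ratios were lowest in sham with intervals apart from the other libraries. Ratios between genes rest on 3′ end counts and are read only across libraries, where the scaling of a library cancels. Sox9 UMIs per 1000 Col2a1 UMIs numbered 13.1 (12.7 to 13.6), 16.3 (15.6 to 17.0) and 21.1 (20.3 to 21.8). Relative to Col2a1, its best known target, Sox9 was thus lowest in sham and highest in UAC + miR-330.

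Ihh, the ligand, had the largest difference of all members between UAC and sham. It measured 127 CPM (120 to 134; 1144 UMIs) in the chondrocyte-like cluster of sham, 57.5 (51.6 to 63.9; 344 UMIs) in UAC and 99.7 (91.8 to 108; 587 UMIs) in UAC + miR-330. UAC was thus the low library, and UAC + miR-330 lay between it and sham with both intervals apart. In UAC against sham Ihh fell 2.20-fold (log2 -1.14, -1.32 to -0.97), and in UAC + miR-330 against UAC it rose 1.73-fold (log2 0.79, 0.60 to 0.99). The fall passed the call rule under every scaling tried, with log2 ratios from -1.27 to -0.94, whereas the rise lost its call relative to the chondrocyte markers (0.34) and to the osteogenic markers (0.28). Over all clusters, where the smaller chondrocyte-like cluster adds to the difference, Ihh read 15.5, 3.94 and 6.33 CPM. Ihh was lower in UAC than in sham beside Sox9 and Col2a1 as well. Per 1000 Sox9 UMIs there were 355 (332 to 380) Ihh UMIs in sham, 182 (162 to 204) in UAC and 195 (178 to 213) in UAC + miR-330. Per 1000 Col2a1 UMIs there were 4.67 (4.40 to 4.95), 2.97 (2.66 to 3.30) and 4.10 (3.77 to 4.44). UAC + miR-330 thus overlapped UAC and lay below sham against Sox9, but lay above UAC and overlapped sham against Col2a1.

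Ihh did not keep a fixed ratio to a marker of hypertrophy. Per 1000 UMIs of Col10a1, the collagen of hypertrophic cartilage, Ihh numbered 455 (423 to 488) in sham, 248 (220 to 279) in UAC and 143 (131 to 156) in UAC + miR-330. Foxa2, a forkhead factor of prehypertrophic chondrocytes, was the second most alike gene of Ihh over the 52 clusters (r = 0.966). It came after P4ha2 (0.969) and level with Col9a2 (0.966). For Ihh, 360 genes of 13924 passed the limit of r given above for Sox9, so the rank does not set Foxa2 apart. Foxa2 itself read 23.2 CPM (20.1 to 26.5) in sham, 11.04 (8.54 to 14.0) in UAC and 25.3 (21.4 to 29.7) in UAC + miR-330, so it fell and rose by the call rule in the same comparisons as Ihh. Outside the cluster Ihh was at 0 UMIs in 13 cluster levels. Its highest level there was 15.5 CPM (24 UMIs) in the erythroid-like cluster led by Igh-6 and Hba-a3 in sham, 12.2% of its level in the chondrocyte-like cluster, where the chondrocyte markers had a median of 4.36% and a highest value of 13.4%.

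**Figure D3:**
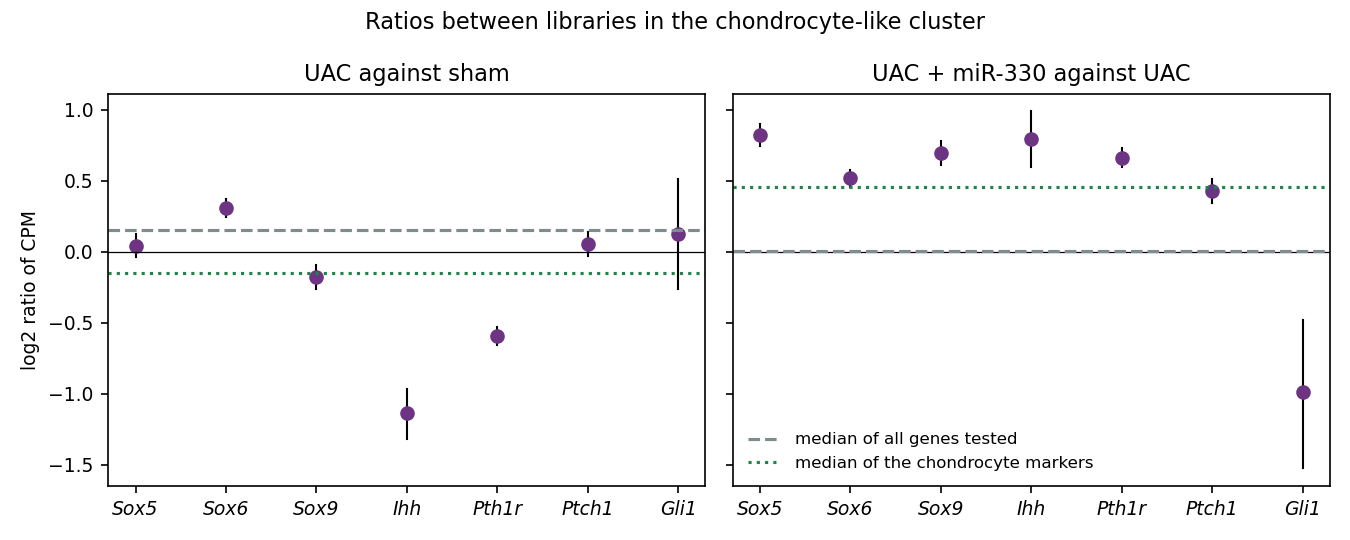
log2 ratio of CPM (vertical axis) of each member in the chondrocyte-like cluster, UAC against sham on the left and UAC + miR-330 against UAC on the right, with points for the ratio, bars for its exact 95% interval and lines for the medians of all genes tested and of the chondrocyte markers. Ihh lies at -1.14 and 0.79 and Gli1 at 0.13 and -0.98; relative to the chondrocyte markers, whose median is 0.46 on the right, Ptch1 turns to -0.03 and no member keeps an upward call.

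Pth1r encodes the receptor shared by parathyroid hormone and PTHrP, which growth plate chondrocytes and osteoblasts both carry. It was the most abundant member by UMIs in the sham chondrocyte-like cluster, at 755 CPM (737 to 773) in sham, 501 (484 to 520) in UAC and 794 (771 to 817) in UAC + miR-330. UAC was the low library, and the sham and UAC + miR-330 intervals overlapped. Pth1r fell 1.51-fold in UAC against sham (log2 -0.59, -0.65 to -0.53), just past the 1.5-fold limit, and the call was lost on the mean counts as deposited (log2 -0.40), relative to the chondrocyte markers (-0.44) and relative to the osteogenic markers (-0.52). In UAC + miR-330 against UAC it rose 1.58-fold (log2 0.66, 0.60 to 0.73), a rise not called relative to the chondrocyte markers (0.21) and the osteogenic markers (0.15). Per 1000 Col2a1 UMIs, Pth1r numbered 27.8 (27.1 to 28.5) in sham, 25.9 (24.9 to 26.8) in UAC and 32.6 (31.7 to 33.6) in UAC + miR-330. Per UMI of Alpl, an enzyme of mineralizing cells, it numbered 0.744 (0.721 to 0.768), 0.849 (0.808 to 0.892) and 0.845 (0.812 to 0.879). Per UMI of Sox9 it numbered 2.11 (2.03 to 2.21), 1.59 (1.499 to 1.68) and 1.55 (1.48 to 1.62), and per 1000 UMIs of Col1a1 13.2 (12.8 to 13.5), 10.7 (10.3 to 11.1) and 16.2 (15.7 to 16.7). Sham was thus the low library against Alpl and the high one against Sox9, and UAC was the low one against Col1a1. Ihh UMIs per 1000 Pth1r UMIs were 168 (158 to 179), 115 (102 to 128) and 126 (115 to 137), with sham apart from both.

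Pth1r also lay mostly in the chondrocyte-like cluster. Its level outside was 0.380%, 0.196% and 0.203% of that inside, above the values of Sox9 but below the marker median in every library, and its highest cluster elsewhere reached 33.6 CPM in sham, 5.85 in UAC and 20.1 in UAC + miR-330. The genes most like it over the 52 clusters were matrix genes, Col2a1 (r = 0.975), Acan (0.974) and Col11a1 (0.973). For Pth1r, 332 genes of 13924 passed the limit of r given above for Sox9. Sox9, Ihh and Pth1r were the most alike members, with r of 0.961 for Sox9 and Ihh, 0.961 for Sox9 and Pth1r and 0.955 for Ihh and Pth1r. Of the 52 points behind these values, the 3 chondrocyte-like clusters stood far above the other 49.

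Ptch1, the hedgehog receptor and a target of its own pathway, read 312 CPM (300 to 323) in the chondrocyte-like cluster of sham, 324 (309 to 338) in UAC and 435 (419 to 453) in UAC + miR-330. Sham and UAC overlapped, with a log2 ratio of 0.05 (-0.03 to 0.14) that turned to -0.08 under median-of-ratios scaling. UAC + miR-330 lay above UAC with intervals apart at 1.35-fold, under the limit. The log2 ratio of 0.43 (0.34 to 0.51) turned to -0.03 relative to the chondrocyte markers and to -0.09 relative to the osteogenic markers. The mean counts as deposited added 0.24 to that ratio, which brings it past the 1.5-fold limit. Its ligand moved differently, since Ptch1 UMIs per Ihh UMI numbered 2.46 (2.29 to 2.64) in sham, 5.63 (5.01 to 6.33) in UAC and 4.37 (3.99 to 4.78) in UAC + miR-330. Other clusters all held at least 1 Ptch1 UMI, with a median of 15.1, 14.3 and 13.6 CPM; in UAC + miR-330 a neutrophil-like cluster held 1 UMI, with only 4 of 17 chondrocyte markers relatively lower, and an erythroid-like cluster had 6 of 17 lower. Its level outside was 6.29%, 5.54% and 4.45% of that inside. All 16 chondrocyte markers fell below this ratio in sham and in UAC and 16 of 17 did in UAC + miR-330, the exception being Prg4 at 4.73%. Its highest level outside was in a cluster led by Dntt, Jhy and Ccdc141, at 40.1 CPM (34.01 to 47.1), 40.0 (33.5 to 47.4) and 46.6 (39.8 to 54.2), 3 values with overlapping intervals. Dntt, an enzyme of early lymphocytes, reached 1522, 1329 and 1322 CPM in those clusters, B cell markers summed to 14782, 13501 and 17645 CPM and endothelial markers to 191, 221 and 277 CPM. Emcn and Flt1 were among the 10 leading genes in UAC + miR-330, and Egfl7 and Erg in UAC. Neutrophil-like clusters gave the lowest Ptch1 levels, 1.68, 1.47 and 0.460 CPM. The genes most like Ptch1 over the 52 clusters were Fermt2 (r = 0.951), Fam92a (0.941) and Tceal9 (0.931), and Gli1 was its most alike member (0.827).

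Gli1, the hedgehog target factor, was the scarcest member. It measured 14.9 CPM (12.4 to 17.6; 134 UMIs) in the chondrocyte-like cluster of sham, 16.2 (13.2 to 19.8; 97 UMIs) in UAC and 8.16 (6.01 to 10.8; 48 UMIs) in UAC + miR-330. Sham and UAC overlapped, with a log2 ratio of 0.13 (-0.27 to 0.51) that fell to -0.00 under median-of-ratios scaling, and UAC + miR-330 was the low library. In UAC + miR-330 against UAC, Gli1 fell 1.98-fold (log2 -0.98, -1.52 to -0.48), the only member that fell in that comparison, and the log2 ratio ran from -1.50 to -0.75 over the scalings. Gli1 UMIs per 1000 Ptch1 UMIs numbered 47.7 (39.8 to 56.7), 50.1 (40.5 to 61.5) and 18.7 (13.8 to 24.9), so that the pathway's usual pair of readouts did not keep one ratio. Outside the cluster Gli1 was at 1.18, 1.62 and 1.74 CPM, and no other cluster passed 5.91 CPM (8 UMIs). The level outside relative to inside was 7.94%, 9.96% and 21.3%, above every chondrocyte marker compared. Over all clusters Gli1 read 2.77 CPM (2.41 to 3.16), 2.56 (2.24 to 2.91) and 2.13 (1.85 to 2.44), and neighbouring libraries were not apart. The genes most like it were Glis2 (r = 0.858), Rcn2 (0.833) and Zfp354c (0.832), at counts low enough that these values are weak.

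**Figure D4:**
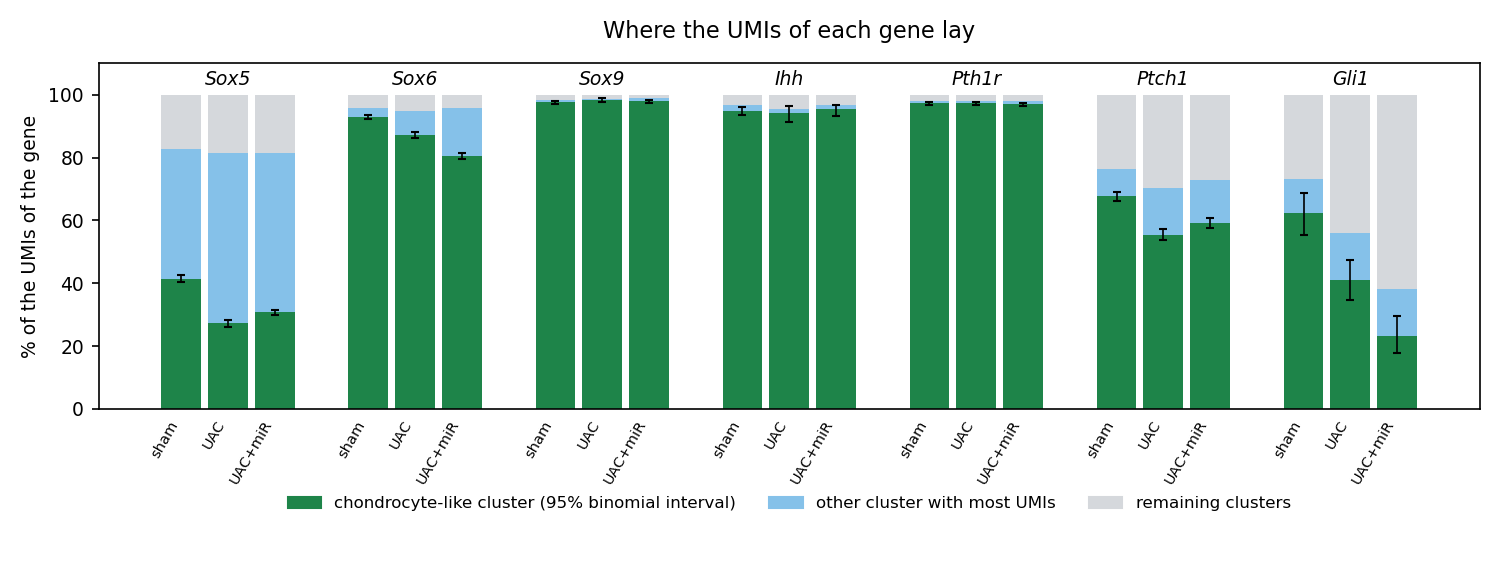
Percent of each member's UMIs (vertical axis, 0 to 100) that lay in the chondrocyte-like cluster (with its exact binomial 95% interval), in the other cluster with most of its UMIs and in the remaining clusters, 1 bar per library. The chondrocyte-like share of Gli1 was 62.3%, 40.9% and 23.2% in sham, UAC and UAC + miR-330 (45.4%, 42.3% and 23.6% with clusters weighted equally), and the second part of the Sox5 bars, 41.3%, 54.2% and 50.7%, is a B cell-like cluster.

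Other genes of the hedgehog pathway were counted in the same cluster. Of 23 genes listed by name other than the members, 18 could be tested in each comparison. For UAC against sham 2 rose (Cdon and Sufu) and 1 fell (Hhat), beside 6.81% and 1.02% of all genes. The median log2 was 0.14 beside 0.15 for all genes. In UAC + miR-330 against UAC 5 rose (Hhat, Evc2, Disp1, Gli3 and Gli2) and 0 fell, beside 5.53% and 5.28% of all genes, with a median of 0.36 beside 0.01 for all genes and 0.46 for the chondrocyte markers. Relative to those markers Hhat alone was called up and Glis2 down, beside far more calls down than up among all genes (counts are given with the scalings below). Hhat, which adds the palmitate that hedgehog ligands need, read 11.2 CPM (9.12 to 13.6) in sham, 6.19 (4.36 to 8.53) in UAC and 17.0 (13.8 to 20.7) in UAC + miR-330. Disp1, which releases the ligand from the cell, read 72.2, 86.3 and 152 CPM, and Gli3, mostly a repressor, 66.1, 71.1 and 121 CPM. Sufu, which holds GLI factors back, read 16.3, 27.9 and 29.6 CPM, and the coreceptor Cdon 7.21, 14.0 and 13.6 CPM. Hhat was thus low in UAC, as Ihh was, but its fall lost its call on the mean counts as deposited and relative to the chondrocyte markers. Disp1 and Gli3 were high in UAC + miR-330, less so relative to the chondrocyte markers, and Sufu and Cdon were low in sham.

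The PTH and PTHrP signalling list was counted in the same way. Of 27 genes 23 were tested. For UAC against sham 2 rose (Prkacb and Adcy9) and 0 fell, beside 6.81% and 1.02% of all genes, with a median log2 of 0.24. Both of these calls were lost under median-of-ratios scaling. From UAC to UAC + miR-330, 2 rose (Mef2c and Pde4d) and 1 fell (Ramp2), beside 5.53% and 5.28% of all genes, with a median of 0.11. Gnas, which encodes the G protein that the receptor couples to, read 869, 729 and 815 CPM with no call. Mef2c, a factor of hypertrophy that PTHrP signalling restrains, read 765, 780 and 1507 CPM, and Pde4d, which breaks down cyclic AMP, 293, 339 and 529 CPM. Ramp2, a partner of the receptor, read 31.5, 32.4 and 20.7 CPM. Mef2c and Pde4d were thus high in UAC + miR-330 and Ramp2 was low there, whereas Pth1r was low in UAC. Relative to the chondrocyte markers 0 genes of the list were called up in UAC + miR-330 against UAC and 3 down (Crem, Crtc2 and Ramp2). Mef2c and Pde4d thus lost their calls. Among all genes, too, calls down far outnumbered calls up under this scaling, so the 3 falls are not read as particular to the list.

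Genes that depend on SOX9 in cartilage were described by a list of 21, of which 20 were tested and 13 also serve as chondrocyte markers. For UAC against sham 0 rose and 1 fell (Snorc), beside 6.81% and 1.02% of all genes. The median log2 was -0.11 beside 0.15 for all genes. The Snorc call was lost on the mean counts as deposited and relative to the chondrocyte markers. For UAC + miR-330 against UAC 6 rose (Fgfr3, Col9a3, Xylt1, Matn3, Col11a1 and Cnmd) and 0 fell, beside 5.53% and 5.28% of all genes, with a median of 0.44 beside 0.01. Relative to the chondrocyte markers 4 were called up (Fgfr3, Col9a3, Xylt1 and Matn3) and 2 down (Chad and Ctgf), beside far more calls down than up among all genes. Since 13 genes of the list also set this scaling, the balance of its calls is partly fixed by the centring, and nothing is read from it. Col2a1 was not called in either comparison, but median-of-ratios scaling called it down in UAC against sham. Col11a1 read 6162, 5713 and 10340 CPM and Col9a3 329, 439 and 999 CPM. Fgfr3, a brake on growth plate proliferation, read 6.21 CPM (4.69 to 8.06), 7.69 (5.63 to 10.3) and 29.2 (25.02 to 33.9), the largest rise of the list at 3.77-fold. Sox9 and 6 of these genes were therefore high in UAC + miR-330, where the chondrocyte markers had a median of 0.46.

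Other SOX family genes were scarce in the chondrocyte-like cluster. Of 17 listed by name 5 were tested for UAC against sham, and 3 fell, beside 1.02% of all genes. A minimum of 50 UMIs left 0 of these calls, and the mean counts as deposited took away that of Sox7. The falls were Sox18 from 29 UMIs to 1, Sox17 from 20 to 0 and Sox7 from 12 to 0. These are endothelial SOX factors, and the endothelial markers moved with them, from 4 of 7 enriched and 57.3 CPM in sham, led by Emcn, to 0 enriched and 7.86 CPM in UAC, with Cdh5, Kdr and Emcn at 0, and 7.82 CPM in UAC + miR-330, with Flt1 at 0 too. The part of endothelial cells in the sham cluster in these falls was not tested. Sox8, a relative of Sox9, read 24.5, 23.2 and 24.6 CPM, and Sox13, a relative of Sox5 and Sox6, 9.87, 9.03 and 10.7 CPM, with no call for either. A median over 5 genes of which 2 reached 0 UMIs is not given.

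The hypertrophy and mineralization list split in direction within each comparison. Of 21 genes 19 were tested. For UAC against sham 3 rose (Mmp13, Spp1 and Bmp6) and 2 fell (Foxa2 and Alpl), beside 6.81% and 1.02% of all genes. The median log2 was -0.10 beside 0.15 for all genes, and Bmp6 lost its call under median-of-ratios scaling. For UAC + miR-330 against UAC 7 rose (Col10a1, Foxa2, Ibsp, Mef2c, Runx2, Alpl and Phospho1) and 1 fell (Mmp13), beside 5.53% and 5.28% of all genes, with a median of 0.46, as the chondrocyte markers had. Scaled to those markers, 2 were called up (Col10a1 and Foxa2) and 4 down (Mmp13, Spp1, Dlx5 and Cdkn1a). Calls down far outnumbered calls up among all genes as well under this scaling, so the 4 falls are not read as particular to the list. Mmp13, the collagenase of hypertrophic and osteoarthritic cartilage, read 140 CPM (133 to 148), 411 (395 to 428) and 251 (238 to 264). Col10a1 read 279 CPM (268 to 290), 232 (220 to 244) and 699 (678 to 721), and Alpl 1015 (995 to 1036), 591 (571 to 610) and 940 (915 to 965). Alpl and Foxa2 were thus low in UAC, as Ihh and Pth1r were, while Mmp13 was high in UAC and Col10a1 in UAC + miR-330. Of 26 growth plate modulators 20 were tested. For UAC against sham 3 rose (Igf2, Ccnd1 and Prrx1) and 0 fell, beside 6.81% and 1.02% of all genes. The median was 0.16 beside 0.15 for all genes. Median-of-ratios scaling lost the call of Prrx1 and called Nog and Wnt5a down. From UAC to UAC + miR-330, 4 rose (Fgfr3, Trps1, Ghr and Fgfr1) and 0 fell, beside 5.53% and 5.28% of all genes. The median was 0.32 beside 0.01 for all genes. Scaled to the chondrocyte markers, only Fgfr3 was called up and 2 genes were called down (Igf2 and Npr2). Far more of all genes were again called down than up under that scaling. Trps1, a transcription factor of chondrocytes, read 1045, 1010 and 1910 CPM, and Ccnd1, a cyclin of dividing cells, 29.2, 62.2 and 65.8 CPM.

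The marker lists did not share one direction across the libraries in the chondrocyte-like cluster. The 20 chondrocyte markers summed to 64292 CPM in sham, 51219 in UAC and 67385 in UAC + miR-330, with Matn1 at 0 in both UAC libraries. The 12 osteogenic markers summed to 70207, 59479 and 60883 CPM. Fibroblast markers, led by Col3a1, summed to 12222, 11201 and 9014 CPM. Neutrophil markers had 0 of 10 enriched and summed to 1234, 4326 and 845 CPM, led by S100a9 in sham and UAC and by S100a8 in UAC + miR-330, with Ltf at 0 in sham and UAC + miR-330. UAC, the library where Ihh and Pth1r were low, was therefore also the one with most neutrophil marker RNA in the cluster and least chondrocyte marker RNA. Skeletal muscle markers, led by Tnni2, summed to 133, 33.6 and 91.6 CPM, and B cell markers, led by Ebf1, to 373, 352 and 243 CPM. Mural markers, led by Cspg4, summed to 388, 406 and 428 CPM, osteoclast markers to 193, 277 and 167 CPM, marrow stromal markers, led by Foxc1, to 75.3, 62.2 and 75.4 CPM and erythroid markers, led by Hba-a1, to 59.8, 32.3 and 61.8 CPM. Single genes made up most of several sums. Ebf1 alone gave 297, 297 and 205 CPM, Cspg4 348, 324 and 377 CPM and Ctsk 177, 260 and 153 CPM. In each library 0 B cell markers were enriched in the cluster. T and NK cell markers, led by Klrb1a, summed to 14.97, 24.4 and 10.4 CPM and macrophage markers to 8.31, 5.35 and 6.63 CPM, and the glial, adipocyte, mast and basophil, dendritic and megakaryocyte lists reached at most 6.43 CPM each. The part of any of these lists in the members' ratios was not tested. Mitochondrial genes took 4.34%, 4.39% and 4.30% of the cluster's UMIs and ribosomal protein genes 11.7%, 11.6% and 10.4%.

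The choice of scaling moved the ratios of all genes in the chondrocyte-like cluster, by amounts that differed between the scalings. For UAC against sham the mean counts as deposited added 0.20 to every log2 ratio, the chondrocyte marker median added 0.15, the osteogenic marker median added 0.07 and median-of-ratios scaling took away 0.13. For UAC + miR-330 against UAC the mean counts as deposited added 0.24, the chondrocyte and osteogenic marker medians took away 0.46 and 0.51, and median-of-ratios scaling took away 0.02. Leaving mitochondrial, haemoglobin and immunoglobulin genes out of the denominator moved the comparisons by 0.0009 and 0.0014 in turn. Among all genes, UAC against sham gave 859 up and 129 down as reported, 541 and 217 under median-of-ratios scaling, 1888 and 74 on the mean counts as deposited and 1560 and 85 relative to the chondrocyte markers. UAC + miR-330 against UAC gave 685 up and 655 down as reported, 1719 and 336 on the mean counts as deposited and 109 and 3133 relative to the chondrocyte markers. Relative to the chondrocyte markers, the members that rose in UAC + miR-330 against UAC had log2 ratios of 0.37 for Sox5, 0.34 for Ihh, 0.24 for Sox9 and 0.21 for Pth1r, so that 0 of them were called, while Gli1 read -1.44 and was still called down. For each of these 4 genes the chondrocyte marker median of 0.46 was thus the larger part of the reported log2 ratio and the excess over it the smaller, while Gli1 lay on the other side.

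Regulatory sequence was available for 3 members, Sox6, Pth1r and Ptch1, as RefSeq promoters of build GRCr8 from 250 bases before to 50 bases after the start of the gene. Sox5, Sox9, Ihh, Pthlh and Gli1 were not in the table. The 3 promoters were searched on both strands for the GLI consensus GACCACCCA, its core CCACCC, the SOX letters ACAAAG and ACAAT, of which SOX pair sites hold a copy on each strand. Of 33469 promoters of the same length, 0.385% held the GLI consensus, 29.4% the core, 18.8% ACAAAG and 33.7% ACAAT. Ptch1 is shown because it is the readout of the GLI factors: its promoter held the consensus on the opposite strand at 172 bases before the start, where it overlaps a core match at 171, and core matches on the same strand at 213 and, outside the stretch printed, at 2. Sox6 is shown because its level differed in the chondrocyte-like and the Car1-led clusters: its promoter held ACAAT at 13 bases before the start on the same strand and at 68 on the opposite strand, and ACAAAG at 79 on the opposite strand. The Pth1r promoter held none of these letters. The matches are descriptions of letters, not of binding. The Ptch1 stretch lies at chr17:1555321-1555470 on the plus strand, 250 to 101 bases before the start, and the Sox6 stretch at chr1:179665372-179665471 on the minus strand, 100 to 1 bases before the start; both are upstream of the annotated start and capitals mark the matches.
Ptch1: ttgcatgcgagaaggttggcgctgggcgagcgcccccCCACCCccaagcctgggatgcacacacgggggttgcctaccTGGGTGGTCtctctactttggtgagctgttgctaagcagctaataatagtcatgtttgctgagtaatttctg
Sox6: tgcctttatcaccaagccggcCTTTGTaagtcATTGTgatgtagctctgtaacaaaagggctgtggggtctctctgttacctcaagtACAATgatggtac

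The agent of the third library was a miR-330 vector, and the mature rat sequences of both arms are given because the arm carried was not stated in the labels. Both come from RefSeq, build GRCr8, plus strand, with the 5p arm at chr1:87961227-87961248 and the 3p arm at chr1:87961266-87961288. Capitals mark the seed, bases 2 to 8, and the seeds of the arms differ.
rno-miR-330-5p: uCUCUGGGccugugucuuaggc
rno-miR-330-3p: gCAAAGCAcagggccugcagaga
Whether any member's transcript holds a match to either seed was not tested.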

How the data were processed

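RNA of pooled condyle cells was captured with a 10x 3′ v3.1 kit, 1 library for each of the 3 conditions, which were grouped by sample title and series design; the labels of the third sample do not themselves name miR-330, and the notes on extraction speak of cell lines in culture where the labels give joint tissue. The submitters' notes name Cell Ranger 7.0, STAR and Seurat 4.0.1, and builds GRCh38 and mm10, although the feature identifiers are rat; the rat build is not given in the sources used here. The deposited tables give, for each gene and graph-based cluster, a mean count (unit signal), which is depth-normalised by the authors so that every cluster adds up to one total per library (4541, 5200 and 6123.5). Whole reads recovered: dividing each deposited signal column by its smallest positive value gave whole UMIs for 100% of values within 0.001. The deposited log2 fold changes and the deposited adjusted p-value columns hold the authors' own comparisons and were not used; the p_value unit was therefore not analysed. Feature names found on several identifiers (101, 106 and 116 per library) were summed. Depth was 77668015, 92629658 and 97255383 UMIs, and the smallest clusters held 1352666, 1796487 and 1691006.

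Levels are UMIs per 1000000 (CPM) with exact Poisson intervals; shares and ratios have exact binomial intervals, all at 95%. Ratios between libraries used 0.5 UMI added to each count. With 1 library per condition no test was run. Clusters were named from 18 marker lists (154 genes, 145 of them listed): the list with most genes enriched at log2 of at least 1 with at least 10 UMIs and 50 CPM, at least 3 of them, ahead of the next list and not contradicted by the 10 leading genes; this rule was settled after the tables were seen. The members and the 6 gene lists were chosen with earlier results of these data known. Named genes are the members, the 3 genes of each list with most UMIs in the chondrocyte-like cluster, up to 3 called genes of each list with the largest change per comparison, the 3 genes most alike to each member and the most abundant marker of each list; other called genes, the markers given for single clusters and the matched clusters were named after their values were seen. Likeness is Pearson r of log2(CPM + 1) over 52 clusters among 13924 genes with at least 100 UMIs, given as description. Alternatives were the fold limit, UMI minimum, interval condition, pseudocount, denominator and scaling. Python 3.11.15, numpy 2.4.6, pandas 2.3.3, scipy 1.17.1 and matplotlib 3.10.9 were used, and the call rule was run on simulated counts with planted changes. Those counts held counting error only, so the run cannot speak to spread between rats or to cluster make-up.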

Additional observations from a re-analysis of the deposited data

How the results depend on the processing

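No called member reversed its direction under any alternative. For UAC against sham, where 0 members were called up and 2 down and the 6 lists gave 10 genes up and 7 down, a 2-fold limit gave 1 member down and 3 list genes up and 4 down. A minimum of 50 UMIs gave 4 list genes down. The mean counts as deposited gave 1 member and 4 list genes down, median-of-ratios scaling gave 6 list genes up, and scaling to the chondrocyte markers gave 1 member down; scaling to the osteogenic markers also took Pth1r under the limit (log2 -0.52). For UAC + miR-330 against UAC, where 4 members were called up and 1 down and the lists gave 22 up and 2 down, a 2-fold limit gave 0 members up, 0 members down, 9 list genes up and 0 down. Without the interval condition 5 list genes were down. The mean counts as deposited brought Sox6 and Ptch1 past the 1.5-fold limit too, and gave 41 list genes up and 0 down. Scaling to the chondrocyte markers gave 0 members up, 7 list genes up and 12 down. These shifts follow from the limits and scale factors themselves; beyond that the cause was not tested. Of the counts for the members and for the 6 lists together, 38 stayed within 1.5 times the reported count and 18 did not; with single lists and all genes included, 175 stayed and 77 did not. Of the member log2 ratios 87 stayed within their counting interval and 53 moved, and of the shares in the chondrocyte-like cluster 24 stayed and 18 moved. The chondrocyte-like cluster was the same cluster in all 3 libraries under the alternative naming. With rank correlation at most 1 of the 3 most alike genes of a member was kept, and with 10 CPM added at most 2. Depth limits Gli1 most, with 48 UMIs in the chondrocyte-like cluster of UAC + miR-330, and pooled animals leave the spread between rats unmeasured.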
